A study of Rattus norvegicus with 12 samples.

Results

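The 7 genes described here encode enzymes of glycolysis, the tricarboxylic acid (TCA) cycle and respiration, and they are Pfkp, Aldoc, Idh3a, Fh, Idh1, Cox6c and Atp5f1b. They were taken by name, by position on the genome or by Ensembl identifier from the 30562 genes in the count tables, and all 7 were among the 13348 genes whose counts averaged 5 or more across the 12 libraries and which were tested. The choice used no threshold on a measured value. The symbols, however, came from the study's own list of genes changed in CTK-2 versus CTL, so all 7 had been called in that comparison on these libraries before they were chosen.

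Glycolysis splits glucose into pyruvate in the cytosol, and phosphofructokinase followed by aldolase catalyses its committed step and the cleavage that comes next. Pyruvate enters the mitochondrion, where the TCA cycle oxidises it and the respiratory chain passes the electrons to oxygen while ATP synthase makes ATP. Oligodendrocytes use glycolytic intermediates and mitochondrial citrate to build the lipids of myelin, and they pass lactate to axons.

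RNA was sequenced from primary rat oligodendrocyte precursor cells (OPCs), shaken off mixed glial cultures of the cortex of wild-type Sprague-Dawley pups of postnatal days 0 to 2, males and females pooled. All cells were grown in proliferation medium and moved to differentiating medium when the treatments began. CTL received neither cytokines nor galinex, CTK-2 received 2 ng/mL of each of the cytokines IFN-γ, TNF-α and IL-1β, GAL received 10 nM galinex (an agonist of the receptor GPR17), and CTK2+GAL received the cytokines and, after 6 h, galinex. Cells without galinex received the solvent DMSO, and RNA was collected 24 h after galinex, with 3 libraries in each of the 4 groups. The labels do not say whether libraries of a group came from separate cultures or litters, so p-values measure only the spread between these libraries, which may be technical.

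The libraries held between 2600797 counts (GAL 1) and 8978185 counts (CTK2+GAL 3). The sample titles name rat OPCs, and the cell type label reads oligodendrocytes. Of the OPC markers, 3 of 7 carried a symbol (Pdgfra, Cspg4, Ptprz1), and their summed level was 2235 to 2479 CPM in CTL and 3950 to 4222 CPM in CTK-2, where CPM is the count per 1e6 counts of a library after scaling by edgeR's TMM method. Of 8 oligodendrocyte markers, the 3 used here (Mag, Mog, Cldn11) summed to 253 to 315 CPM in CTL and to 131 to 151 CPM in CTK-2. The 2 of 10 microglia markers (Csf1r, P2ry12) summed to 1.72 to 6.65 CPM in CTL and to 12.2 to 16.1 CPM in CTK-2. With galinex on both sides, P2ry12 was at 1.16 to 3.09 CPM in GAL and 9.42 to 10.3 CPM in CTK2+GAL. Csf1r overlapped there, at 0.670 to 3.09 CPM in GAL and 1.56 to 3.91 CPM in CTK2+GAL. The single neuron marker of 8, Tubb3, lay at 81.7 to 89.0 CPM in CTL and at 156 to 189 CPM in CTK-2. The 2 of 10 astrocyte markers (Sox9, Fgfr3) summed to 92.6 to 117 CPM in CTL and to 95.9 to 110 CPM in CTK-2. That sum hides opposite changes, with a log2 fold change of 1.98 for Sox9 and -1.20 for Fgfr3 in CTK-2 versus CTL. The remaining markers, among them defining ones such as Mbp, Gfap and Aif1, were not analysed here for want of a symbol. Symbols came only from the study's list of genes changed in CTK-2 versus CTL. The markers shown are thus ones already called there, and their sums do not stand for the full marker lists. The part of these shifts in the results below was not tested, and in bulk RNA fewer cells of a type and less RNA per cell cannot be told apart.

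CTL 3 and GAL 3 stood apart from the other libraries of their groups. Acod1, which inflammatory signals induce, was at 0 CPM in CTL 1, CTL 2, GAL 1 and GAL 2 but at 3.08 CPM in CTL 3 and 1.89 CPM in GAL 3. Over the 2324 genes called in CTK2+GAL versus GAL, CTL 3 was the CTL library nearest the cytokine level in 61.6%, and over the 2311 genes called in CTK-2 versus CTL, GAL 3 was the nearest GAL library in 54.3%. Of the 7 metabolic genes, CTL 3 was the nearest in 6 (all but Idh1) and GAL 3 in 5 (all but Idh3a and Fh). The cytokine fold changes of the 7 genes and their range in GAL versus CTL are therefore also given without both libraries.

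The promoters of the glycolytic genes that moved in opposite directions, Pfkp and Aldoc, and that of Atp5f1b, which had the highest mean level per length of the 7, are shown as the 250 bases before the RefSeq start of the gene on GRCr8, a newer rat build than the one behind the counts. Capitals mark the letters found in a search of both strands. One set was the GC box, with the letters GGGCGG, to which factors of the Sp1 family bind. Another was the CCAAT box, spelled CCAAT and known as the site of NF-Y. The core of the hypoxia response element was searched as ACGTG. The windows are chr17:68639563-68639812 on the plus strand for Pfkp, chr10:63715294-63715543 on the plus strand for Aldoc and chr7:1099808-1100057 on the plus strand for Atp5f1b.
Pfkp promoter: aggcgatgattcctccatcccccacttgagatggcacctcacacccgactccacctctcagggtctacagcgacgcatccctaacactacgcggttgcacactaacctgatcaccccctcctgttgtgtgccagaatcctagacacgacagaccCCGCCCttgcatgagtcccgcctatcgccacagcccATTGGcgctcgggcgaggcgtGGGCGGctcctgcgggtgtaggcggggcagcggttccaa
Aldoc promoter: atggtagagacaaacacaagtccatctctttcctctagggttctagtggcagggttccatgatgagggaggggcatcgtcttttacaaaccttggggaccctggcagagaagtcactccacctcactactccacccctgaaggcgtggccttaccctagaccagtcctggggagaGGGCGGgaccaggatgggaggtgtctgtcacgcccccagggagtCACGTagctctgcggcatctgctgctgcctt
Atp5f1b promoter: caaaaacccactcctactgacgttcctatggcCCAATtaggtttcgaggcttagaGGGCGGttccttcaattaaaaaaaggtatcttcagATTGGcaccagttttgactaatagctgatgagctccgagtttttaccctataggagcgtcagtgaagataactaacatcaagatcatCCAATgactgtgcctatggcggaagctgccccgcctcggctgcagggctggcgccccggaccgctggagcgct
RefSeq gave a promoter for 5 of the 7 genes, which left Idh3a and Cox6c without one. A GC box was present in all 5, compared with 30.467% of the 33469 rat promoters of the same length. The Pfkp window held GC boxes at -39 and -96 from the start and a CCAAT box at -60, and its G+C content was 62.8% beside a median of 51.2% over all promoters. The Aldoc window held a GC box at -75 and the only hypoxia core among the 5, at -31, whose letters occur in 16.574% of all promoters. CCAAT boxes, found in 34.017% of all promoters, occurred in Pfkp, Fh and Atp5f1b, the last with 3 of them. No hit overlapped another. The GC box and CCAAT box were added after the promoters had been seen, and a match describes the letters of a window rather than a bound site.

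The cytokine comparisons ask how the metabolic genes respond to inflammation, without galinex (CTK-2 versus CTL) and with it (CTK2+GAL versus GAL). Pfkp was higher and the 6 other genes lower in the cytokine libraries of both. In CTK2+GAL versus GAL, Pfkp rose 4.75-fold (95% confidence interval 4.16 to 5.43), Aldoc, Fh, Idh1, Cox6c and Atp5f1b fell by 33.6% to 42.7%, and Idh3a was 28.8% lower without reaching the minimum fold change. A gene was called where its adjusted p was at most 0.05 and its log2 fold change at least 0.59 in size. In CTK-2 versus CTL all 7 genes were called, 1 of them higher and 6 lower, and of all genes tested 11.5% were called higher and 5.79% lower, but the 7 came from a list of genes called in that comparison and the count is a description. CTK2+GAL versus GAL used the 6 libraries outside that comparison, although the list's mean level of each gene covered all 12 libraries. There 1 of the 7 was called higher and 5 lower, compared with 11.7% and 5.74% of all genes tested. The 7 had been called for the same cytokine contrast without galinex, so this count is a description too. The median log2 fold change of the 7 was -0.70 and -0.68 in these comparisons, and that of all genes was 0.00 and 0.01. The libraries with and without cytokines did not overlap in any of the 7 genes in either comparison, which held for 49.1% of all genes in CTK-2 versus CTL and for 49.5% in CTK2+GAL versus GAL.

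**Figure D1:**
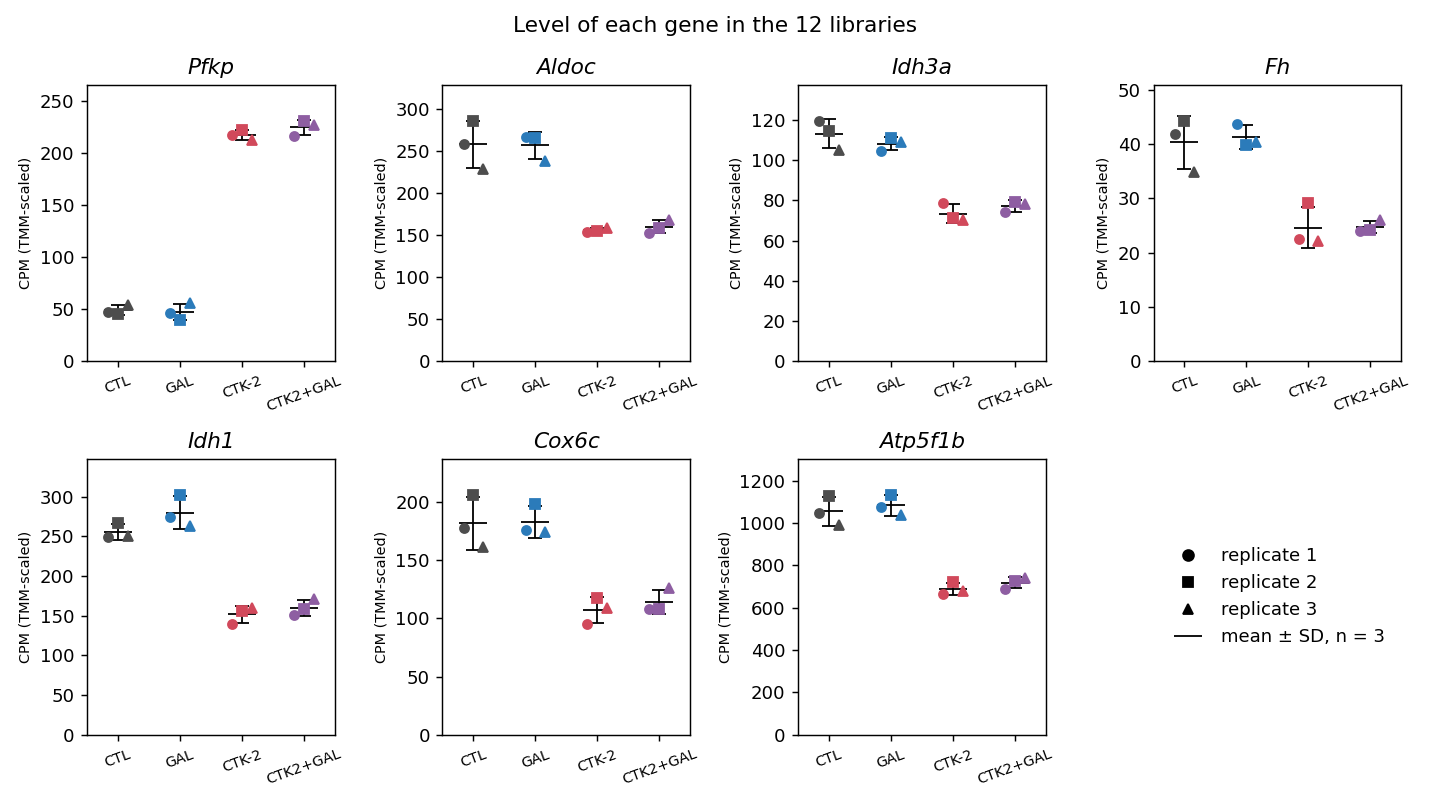
Level of each of the 7 genes in the 12 libraries, in CPM on a linear axis from 0, with 1 point for each library (its shape gives the replicate) and the mean ± SD of the 3 libraries of a group. Pfkp lies at 39.9 to 55.7 CPM without cytokines and at 213 to 231 CPM with them, and in the 6 other genes every library with cytokines lies below every library without.

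Pfkp, on chromosome 17 from 63729780 to 63794018 of mRatBN7.2 (plus strand), encodes the platelet-type isoform of phosphofructokinase, the enzyme that commits fructose 6-phosphate to glycolysis. It was at 47.1, 45.1 and 54.2 CPM in CTL 1, 2 and 3 and at 218, 223 and 213 CPM in the CTK-2 libraries. In GAL it was at 46.2, 39.9 and 55.7 CPM, and in CTK2+GAL at 217, 231 and 227 CPM. The libraries thus formed a low and a high set, with the highest of the low set being CTL 3 and GAL 3. The log2 fold change was 2.15 ± 0.089 (SE) in CTK-2 versus CTL and 2.25 ± 0.091 in CTK2+GAL versus GAL, the latter with an adjusted p of 2.51e-12 (Benjamini-Hochberg, edgeR's quasi-likelihood test). It ranked at place 22 of 13348 genes by p in CTK2+GAL versus GAL. Without CTL 3 and GAL 3 the log2 fold changes were 2.24 and 2.42.

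Aldoc, on chromosome 10 from 63217451 to 63221066 (plus strand), encodes the brain isoform of aldolase, which cleaves the product of phosphofructokinase and is also widely used to mark astrocytes. Its level was 259, 286 and 229 CPM in CTL and 154, 154 and 158 CPM in CTK-2. It was 267, 265 and 238 CPM in GAL and 152, 159 and 168 CPM in CTK2+GAL. The cytokine libraries were all low and close together, while CTL 3 and GAL 3 were the lowest of their groups. For Aldoc the log2 fold change was -0.73 ± 0.074 in CTK-2 versus CTL and -0.68 ± 0.074 in CTK2+GAL versus GAL (adjusted p = 6.80e-07, edgeR's quasi-likelihood test), and without CTL 3 and GAL 3 it was -0.81 and -0.73. Of the astrocyte markers with a symbol, Sox9 went from 15.3 to 16.3 CPM in CTL up to 55.6 to 67.1 CPM in CTK-2, and Fgfr3 from 76.5 to 102 CPM down to 36.1 to 42.9 CPM, so the markers moved in opposite directions.

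Because Pfkp and Aldoc act in sequence, their ratio was taken within each library, where it does not depend on library scaling. Per length (RPKM, the CPM divided by the exon length of the gene in kb), Aldoc was 9.62, 11.1 and 7.41 times Pfkp in the CTL libraries and 10.1, 11.6 and 7.49 times Pfkp in the GAL libraries. With cytokines the ratio was 1.24, 1.22 and 1.30 in CTK-2 and 1.23, 1.20 and 1.30 in CTK2+GAL. The mean was 9.38 ± 1.86 (SD, n = 3) in CTL, 1.25 ± 0.044 in CTK-2, 9.76 ± 2.10 in GAL and 1.24 ± 0.047 in CTK2+GAL, and per length Aldoc was the more abundant of the pair in every library. The corresponding ratio of Aldoc to Ldha, which encodes the lactate dehydrogenase subunit at the end of anaerobic glycolysis, was 1.98 ± 0.067 in CTL and 2.12 ± 0.15 in CTK-2, a difference within the spread of the libraries.

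Idh3a, on chromosome 8 from 54971740 to 54991084 (plus strand), encodes the catalytic subunit of the mitochondrial NAD-dependent isocitrate dehydrogenase of the TCA cycle. It lay at 120, 115 and 105 CPM in CTL and at 78.6, 71.4 and 70.2 CPM in CTK-2. Its levels were 105, 111 and 109 CPM in GAL and 74.1, 79.4 and 78.2 CPM in CTK2+GAL. Every cytokine library was lower than every library without cytokines. The log2 fold change was -0.62 ± 0.065 in CTK-2 versus CTL and -0.49 ± 0.065 in CTK2+GAL versus GAL, where it passed the adjusted p (7.79e-06, edgeR's quasi-likelihood test), as 19.4% of all genes did in that direction, but not the minimum fold change, and Idh3a was the only one of the 7 not called there. The difference between both cytokine effects was 0.13 on the log2 scale (95% confidence interval -0.06 to 0.33) and was not called. In CTK-2 versus CTL the call was lost without CTL 1, at -0.58, and without CTL 3 and GAL 3 the values were -0.68 and -0.49.

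Fh, on chromosome 13 from 87524337 to 87550266 (minus strand), encodes fumarate hydratase, which converts fumarate to malate. It was at 42.0, 44.3 and 34.9 CPM in CTL and at 22.6, 29.1 and 22.2 CPM in CTK-2. GAL libraries held 43.8, 39.9 and 40.4 CPM, and CTK2+GAL libraries 23.9, 24.1 and 26.0 CPM. The groups did not overlap, but CTL 3 and CTK-2 2 came closest to each other, and the SE was the largest of the 7. For Fh the log2 fold change was -0.70 ± 0.11 in CTK-2 versus CTL and -0.72 ± 0.11 in CTK2+GAL versus GAL (adjusted p = 5.01e-05, edgeR's quasi-likelihood test). Without CTL 3 and GAL 3 it was -0.80 and -0.73.

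Idh1, on chromosome 9 from 66534146 to 66563708 (minus strand), encodes the NADP-dependent isocitrate dehydrogenase of the cytosol and peroxisomes, which yields NADPH and lies outside the mitochondrial cycle. It was at 249, 267 and 251 CPM in CTL and at 140, 156 and 159 CPM in CTK-2. The GAL libraries held 274, 303 and 263 CPM and the CTK2+GAL libraries 151, 159 and 171 CPM. CTL 3 lay between the other CTL libraries, unlike in the 6 other genes. The log2 fold change was -0.75 ± 0.070 in CTK-2 versus CTL and -0.80 ± 0.070 in CTK2+GAL versus GAL (adjusted p = 3.33e-08, edgeR's quasi-likelihood test), the largest decrease of the 7 in the latter. Leaving out CTL 3 and GAL 3 gave -0.76 and -0.85.

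Cox6c, on chromosome 7 from 67111024 to 67141963 (minus strand), encodes a small nuclear-encoded subunit of cytochrome c oxidase, the last complex of the respiratory chain. Its level was 178, 206 and 161 CPM in CTL and 95.0, 118 and 109 CPM in CTK-2. In GAL it was 176, 198 and 174 CPM, and in CTK2+GAL 108, 108 and 126 CPM. Replicate 2 was the highest of its group in CTL, GAL and CTK-2, and no cytokine library reached a library without cytokines. Its log2 fold change was -0.76 ± 0.095 in CTK-2 versus CTL and -0.68 ± 0.094 in CTK2+GAL versus GAL (adjusted p = 1.28e-05, edgeR's quasi-likelihood test), and -0.83 and -0.72 without CTL 3 and GAL 3. A gene on the opposite strand overlaps Cox6c and held 13057 counts over the 12 libraries. The counting used strand, so its reads were kept apart.

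Atp5f1b, on chromosome 7 from 515460 to 567273 (plus strand), encodes the catalytic beta subunit of the mitochondrial ATP synthase. It was at 1048, 1128 and 993 CPM in CTL and at 665, 723 and 681 CPM in CTK-2. It was at 1079, 1135 and 1038 CPM in GAL and at 691, 725 and 743 CPM in CTK2+GAL. The lowest library without cytokines was CTL 3, still above the highest with them. The log2 fold change was -0.61 ± 0.059 in CTK-2 versus CTL and -0.59 ± 0.059 in CTK2+GAL versus GAL (adjusted p = 2.36e-07, edgeR's quasi-likelihood test), a value at the threshold of 0.59. The call in CTK-2 versus CTL was lost without CTL 2 (-0.57), without CTK-2 1 (-0.59) and when libraries were scaled by their totals alone (-0.58). The call in CTK2+GAL versus GAL was lost without GAL 2 (-0.56), without CTK2+GAL 1 (-0.56), with total counts (-0.56), with DESeq2 or its size factors in edgeR (both -0.59) and with edgeR's filterByExpr (-0.59). Without CTL 3 and GAL 3 the values were -0.66 and -0.62. The annotated span overlaps 3 other genes on the same strand, with 14899 counts in all, and read pairs shared between genes were not counted, so its level is uncertain by that overlap.

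**Figure D2:**
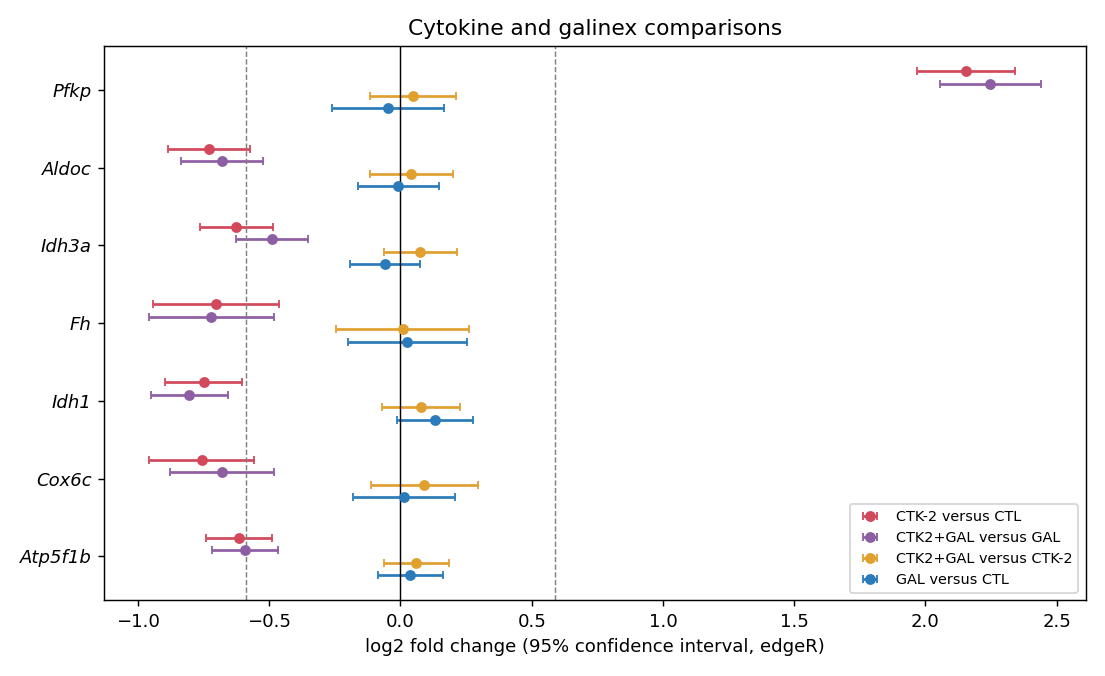
Log2 fold change of the 7 genes with 95% confidence intervals (edgeR) in the cytokine comparisons, CTK-2 versus CTL and CTK2+GAL versus GAL, and in the galinex comparisons, CTK2+GAL versus CTK-2 and GAL versus CTL, with dashed lines at the threshold of 0.59 in either direction. Pfkp lies above 2 and the 6 other genes between -0.80 and -0.49 in the cytokine comparisons, and all 7 intervals include 0 in both galinex comparisons.

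The order of the genes by level per length changed with cytokines at the position of Pfkp. In CTL the means ran from Atp5f1b (590 ± 37.9 RPKM, SD, n = 3) over Cox6c (494 ± 61.8), Aldoc (156 ± 17.2), Idh1 (112 ± 4.19), Idh3a (45.9 ± 2.96) and Fh (24.9 ± 3.03) to Pfkp (16.9 ± 1.64). Only Atp5f1b and Cox6c overlapped among neighbours in that order, and in GAL the same order held without overlap. In CTK-2 Pfkp stood at place 4, with 75.4 ± 1.62 RPKM between Aldoc (94.2 ± 1.47) and Idh1 (66.6 ± 4.58), and in CTK2+GAL it stood at place 4 with 77.8 ± 2.60 RPKM. No neighbours overlapped in either cytokine group. The other 6 genes kept their order among themselves, and Atp5f1b was 1.20 ± 0.071 times Cox6c in CTL and 1.33 ± 0.098 times in CTK-2, with overlapping libraries.

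**Figure D3:**
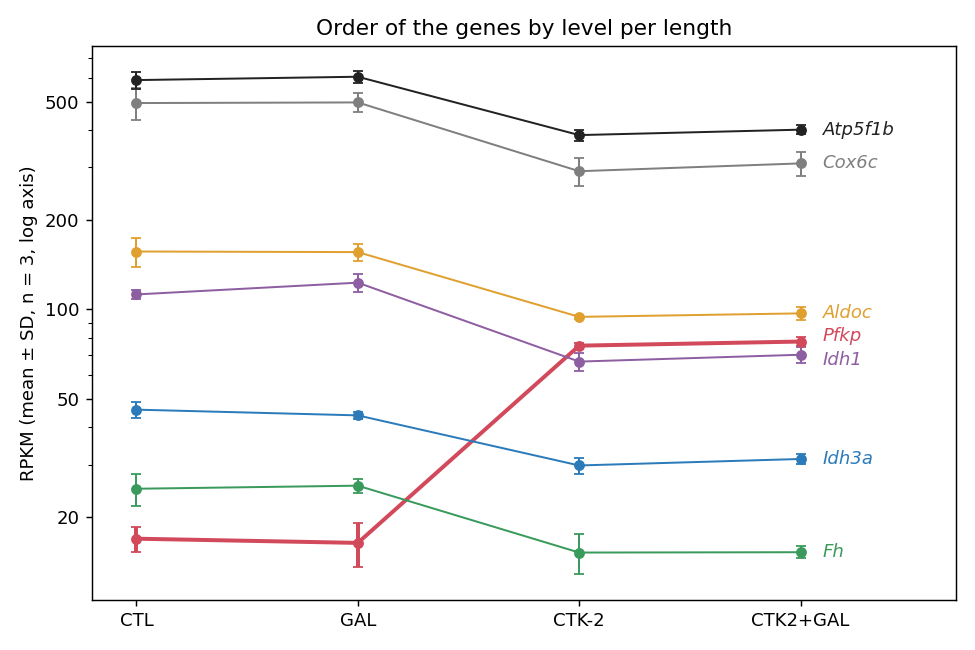
Level per length of the 7 genes in the 4 groups, in RPKM on a log axis, as the mean ± SD of 3 libraries, with lines joining the means of a gene. The line of Pfkp crosses those of Fh, Idh3a and Idh1 between GAL and CTK-2, from 16.3 to 75.4 RPKM.

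Galinex moved none of the 7 genes past the thresholds. In CTK2+GAL versus CTK-2 the log2 fold changes lay between 0.01 (Fh) and 0.09 (Cox6c), and in GAL versus CTL between -0.06 (Idh3a) and 0.13 (Idh1). No gene of the 13348 was called in either comparison by edgeR's quasi-likelihood test, a share of 0%. At an unadjusted p under 0.05, 545 genes (4.08%) passed in CTK2+GAL versus CTK-2 and 574 (4.3%) in GAL versus CTL, and none of the 7 was among them. DESeq2 called 0 genes at the adjusted p, with 241 and 260 genes at the unadjusted p. An edgeR fit of GAL versus CTL with same-numbered libraries as pairs gave 1 gene of 12956 at the adjusted p and 636 at the unadjusted p, and Idh1 was the only one of the 7 among the latter. The lowest bound of the 95% confidence intervals of the 7 genes was -0.24 (Fh) and the highest 0.29 (Cox6c) in CTK2+GAL versus CTK-2, and in GAL versus CTL they were -0.26 (Pfkp) and 0.28 (Idh1). Without CTL 3 and GAL 3 the values in GAL versus CTL lay between -0.14 (Pfkp) and 0.17 (Idh1), and none was called. In all 7 genes the CTK2+GAL libraries overlapped the CTK-2 libraries, and the GAL libraries overlapped the CTL libraries, while groups without overlap made up 11.5% and 8.32% of all genes.

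Idh1 had the smallest unadjusted p of the 7 under galinex without cytokines. Its log2 fold change in GAL versus CTL was 0.13 ± 0.069 (95% confidence interval -0.01 to 0.28, unadjusted p = 0.0686, adjusted p = 0.997, edgeR's quasi-likelihood test). GAL 2 was the highest of the 6 libraries, and GAL 3 lay below CTL 2. Deviations from the group means correlated at r = 0.26, 0.26 and 0.60 between same-numbered CTL and GAL libraries, but also at 0.23 between CTL 1 and GAL 2 and at 0.15 between CTL 2 and GAL 1. With same-numbered pairs in the model the value was 0.13 ± 0.059 (unadjusted p = 0.037, adjusted p = 0.984, edgeR's quasi-likelihood test). The difference of the cytokine effect with and without galinex was called in 0 of the 7 genes and in 0 of all genes, with 376 genes (2.82%) at an unadjusted p under 0.05 and 123 by DESeq2. It lay between -0.05 (Idh1) and 0.13 (Idh3a) on the log2 scale.

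The list of genes around these steps was limited to those with a symbol, each of them also in the study's list of genes changed in CTK-2 versus CTL. Of 28 glycolysis genes, Ldha was the only one besides Pfkp and Aldoc, and on a list of 21 genes of the TCA cycle and its cytosolic enzyme forms there were none besides Idh3a, Fh and the cytosolic Idh1. Cox6c was the only one of 16 genes of complex IV and Atp5f1b the only one of 18 of complex V. No tested gene of complex I (37 listed), complex II (4) or complex III (10) carried a symbol, and none of 20 paralogs and partners of the 7 genes had one. Neither the other isoforms of phosphofructokinase and aldolase nor the other subunits were therefore analysed here. A gene without a symbol was outside the study's list or among its unmatched entries (1751 of 1786 matched 1 gene). The named genes thus do not stand for their pathways. In CTK2+GAL versus GAL, 8 of the 11 pathway genes with a symbol other than the 7 were called lower and 1 higher, and Slc2a13 and Ppargc1a were not called. Of all genes 5.74% were called lower and 11.7% higher, but the 11 had been called for the same cytokine contrast without galinex, so the count is a description. In CTK-2 versus CTL, 9 were called lower and 2 higher, a count that the list fixes.

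Ldha stood at 222, 234 and 200 CPM in CTL, 199, 247 and 216 CPM in GAL, 117, 133 and 121 CPM in CTK-2 and 124, 140 and 128 CPM in CTK2+GAL. It was therefore lower in every cytokine library, with a log2 fold change of -0.76 ± 0.082 in CTK2+GAL versus GAL (adjusted p = 6.04e-07, edgeR's quasi-likelihood test). Pdp2, a phosphatase that activates pyruvate dehydrogenase, fell by 0.85 on the log2 scale. Its level was 28.4 to 32.3 CPM in GAL and 15.1 to 18.5 CPM in CTK2+GAL. Tkt, the transketolase of the pentose phosphate pathway, fell by 0.70, with 454 to 480 CPM in GAL and 277 to 295 CPM in CTK2+GAL. Slc2a13, a transporter of myo-inositol, had a log2 fold change of -0.47 ± 0.17 with overlapping libraries, and without GAL 3 it was called at -0.66.

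On the list of 13 genes that handle citrate, malate or cytosolic reducing power, 5 carried a symbol, each through its earlier call in CTK-2 versus CTL. These 5 were called lower in CTK2+GAL versus GAL, as 5.74% of all genes were, and the other 8 were not analysed here. Acly, which cleaves exported citrate to acetyl-CoA for lipid synthesis, was at 899, 813 and 765 CPM in GAL and at 490, 451 and 466 CPM in CTK2+GAL, a log2 fold change of -0.81 ± 0.064 (adjusted p = 8.44e-09, edgeR's quasi-likelihood test). Me1, the cytosolic malic enzyme that yields NADPH, changed by -0.72 ± 0.17 and Slc25a10, the dicarboxylate carrier of the inner mitochondrial membrane, by -0.66 ± 0.13, the latter losing its call at -0.57 without CTK2+GAL 2. Slc25a13, the aspartate-glutamate carrier of the malate-aspartate shuttle, changed by -1.40 ± 0.32, and Gpd1, the cytosolic glycerol 3-phosphate dehydrogenase, by -1.46 ± 0.31. Both of these were scarce, at 0.888 to 2.77 CPM in CTK2+GAL. Groups of these 5 genes did not overlap in CTK2+GAL versus GAL, which held for 49.5% of all genes.

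**Figure D4:**
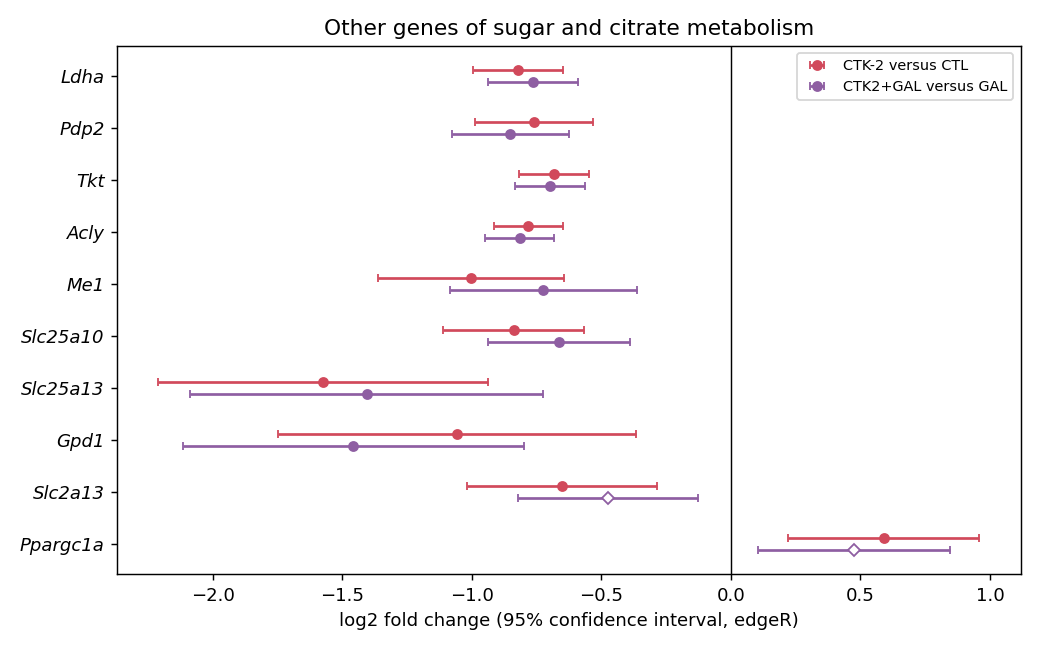
Log2 fold change with 95% confidence intervals (edgeR) of 10 other genes of sugar and citrate metabolism in CTK-2 versus CTL and CTK2+GAL versus GAL, filled where the gene was called and open where it was not. The 9 genes other than Ppargc1a lie below 0, at -1.57 to -0.47, with Slc2a13 and Ppargc1a open in CTK2+GAL versus GAL.

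Acod1 and Ppargc1a lay on the higher side. Acod1 encodes the mitochondrial enzyme that turns the TCA cycle intermediate cis-aconitate into itaconate, and it was at 17.6, 19.4 and 15.0 CPM in CTK-2 and at 20.6, 14.6 and 15.1 CPM in CTK2+GAL. No fold change is given for it, since its counts without cytokines came from CTL 3 (19 counts) and GAL 3 (11 counts) alone. Ppargc1a encodes a coactivator of mitochondrial genes. It was at 8.92, 7.03 and 7.91 CPM in GAL and at 11.1, 11.5 and 10.1 CPM in CTK2+GAL, a log2 fold change of 0.48 ± 0.18 that was not called.

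The genes of the mitochondrial genome, which encode the core of the respiratory chain with its ribosomal and transfer RNAs, gave a comparison for the nuclear Cox6c and Atp5f1b that was added after the data had been seen. Of 37 such genes, 18 were tested, and 0 were called in any comparison by edgeR's quasi-likelihood test. Of all genes tested, 11.5% were called higher and 5.79% lower in CTK-2 versus CTL. In CTK2+GAL versus GAL the shares were 11.7% and 5.74%, and in the galinex comparisons and the interaction 0% were called. At an unadjusted p under 0.05, 0 of the 18 passed in CTK-2 versus CTL and 1 in CTK2+GAL versus GAL. At the adjusted p alone, 0 of the 18 passed in either, while 5213 and 5290 of the 13348 genes did. Their median log2 fold change was -0.01 in CTK-2 versus CTL and -0.04 in CTK2+GAL versus GAL. The values were -0.76 and -0.68 for Cox6c and -0.61 and -0.59 for Atp5f1b. Cox6c and Atp5f1b had been called in CTK-2 versus CTL before they were chosen, while the mitochondrial genes were not chosen by a call. The difference is thus a description and does not stand for nuclear against mitochondrial genes. The genes of the mitochondrial genome took 2.51% to 3.11% of the counts in CTL and 2.60% to 3.01% in CTK-2, ranges that overlapped.

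The genes with the most similar pattern over the 12 libraries were sought among the 1750 other tested genes with a symbol, by Pearson's r of log2(CPM + 1). These libraries share the step between cytokine and other groups, so high values follow for many genes called in that contrast. For Pfkp they were Gbp4, Ifit2 and Herc6, each with r = 0.998, and all of them are known as interferon-induced genes. For Aldoc they were Afap1l2, Mboat2 and Stam (0.993 to 0.994), and for Idh1 they were Pdia4, Fdps and Sh3gl3 (0.990 to 0.995), of which Fdps encodes an enzyme of the cholesterol pathway. For Idh3a they were Wls, Mreg and Hsd17b7 (0.982 to 0.991), the last also of cholesterol synthesis, and for Fh they were RGD1310352, Mag and Sys1 (0.977 to 0.985), of which Mag encodes a myelin protein. For Cox6c they included Pdcd10 and Tmprss13 (0.988 to 0.991), and for Atp5f1b they were Rnd2, Sec23a and Gramd2b (0.995 to 0.996).

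Within groups, after the group means were removed, the 7 genes varied together to different degrees over the 12 libraries. Atp5f1b and Cox6c had the highest correlation (r = 0.91), followed by Idh1 and Cox6c (0.83) and Aldoc and Atp5f1b (0.82). Pfkp was negative with all 6 others, from -0.69 with Aldoc to -0.20 with Fh. Among pairs of the mitochondrial genes the lowest values were those of Idh3a, with r = 0.26 to Atp5f1b, 0.16 to Fh and 0.06 to Cox6c. With 3 libraries in each group these correlations are imprecise, no interval was computed, and whether Idh3a differs from the other genes was not tested. These values describe 12 libraries in which each gene shares the library and its scaling, and CTL 3 and GAL 3 contribute to them.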

How the data were processed

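The deposited counts are whole read pairs for each gene in 12 libraries, which the authors made with FastQC and STAR (versions not given in the sources used here) and, per the file headers, featureCounts 2.0.0 on the exons of Ensembl 112 for mRatBN7.2. Counting was reverse-stranded, needed both ends, and left out multi-mapping and multi-overlapping pairs, so near-identical isoforms lose counts. The values were neither normalized nor filtered.

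The tables hold Ensembl identifiers without symbols. Each entry of the study's list of genes changed in CTK-2 versus CTL was matched to the gene with the same mean (within 6e-05 of it) and log2 fold change (within 0.05), and 1751 of 1786 entries matched 1 gene. Of 893 entries held out of the fit of library factors, 875 matched, all to the same gene. After the signs of the fold changes were reversed, 5 matched. All 7 members were the same gene by this match and by position or identifier.

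Genes whose mean count was 5 or more were normalized by TMM and fitted in R 4.3.3 by edgeR 4.0.16 (with limma 3.58.1) in one quasi-likelihood model of 4 group means. Benjamini-Hochberg adjustment covered all 13348 tested genes. The SE is the size of the log2 fold change over the root of F. The script was tested on simulated data. The alternatives were DESeq2 1.42.0, its size factors, total counts, other filters (none, filterByExpr, and one dropping the 15% least variable genes by interquartile range), a replicate block, models of 2 groups, no fold threshold and each library left out. The members and gene lists were chosen with earlier results of these data known. Named genes are the members, every gene of the pathway lists with a symbol that was called in either cytokine comparison, and the 3 most alike for each member, and a few genes and motifs are not reported here. In no group did replicates agree within counting noise. Same-numbered libraries were compared after removal of group means, and the residuals correlated at 0.26 to 0.60 for CTL with GAL, so these were also fitted as pairs, which the labels do not state, and at 0.00 to 0.07 in the other comparisons.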

Additional observations from a re-analysis of the deposited data

How the results depend on the processing

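Over 23 other settings, all 308 values of the 7 genes in CTK-2 versus CTL and CTK2+GAL versus GAL kept their sign, 11 changed side of the call thresholds (Atp5f1b and Idh3a), and the highest adjusted p (edgeR's quasi-likelihood test or DESeq2) was 0.000964. The values of the other pathway genes, 484 in all, kept their sign, and 15 changed side of a threshold. Leaving out 1 library at a time, the members called numbered 6 to 7 in CTK-2 versus CTL and 5 to 6 in CTK2+GAL versus GAL, the genes called 2121 to 2523 and 2032 to 2418, and the other pathway genes called higher 1 to 2 in CTK-2 versus CTL, where Ppargc1a lost its call without CTL 1, CTL 2, CTK-2 2 or CTK-2 3. No genes were called in the galinex comparisons or the interaction without any 1 library. Without a fold threshold, 5213 and 5290 genes passed in the cytokine comparisons, and 2 other pathway genes were higher in CTK2+GAL versus GAL. Without a filter on low counts, 2 genes were called in GAL versus CTL and 4 in the interaction, none of them a member, and without CTL 3 and GAL 3, a choice made after seeing the data, 4 and 6. The other pathway genes called higher in CTK-2 versus CTL numbered 1 by DESeq2 (Acod1 at an adjusted p of 0.061), without the filter and with the interquartile range filter (Ppargc1a below the fold threshold in both). The causes were not tested. With the replicate block, 7 and 6 members were called, with 2320 and 2321 genes, and the block changed no call of a member. In the cytokine and CTK2+GAL versus CTK-2 comparisons the labels do not say whether same-numbered libraries share more than the number. The weak correlation of their residuals does not settle it. Of the pathway genes, Gpd1 and Slc25a13 had the fewest counts over the 12 libraries.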
